A study of Drosophila melanogaster with 6 samples.

Results

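Actin filaments turn over through a set of proteins that bind monomers, sever or disassemble old filaments and cap filament ends, and 10 of their genes were examined in Drosophila melanogaster astrocytes. The genes were chic, tsr, capt, twf, ssh, flr, cib, Gel, cpa and cpb. They were chosen by symbol, and all 10 were among the 16666 symbols of the deposited count table and among the 9082 that were abundant enough to be tested. RNA came from red fluorescent cells sorted from brains of adults (Adult, 4 libraries) and of larvae at the third instar (L3, 2 libraries). All 6 libraries came from flies of the same genotype, in which Alrm-Gal4 drove the nuclear red reporter UAS-RedStinger beside UAS-mCD8::GFP, and no library lacked the driver or the reporters. The series sets astrocytes after neuronal remodelling against astrocytes before it, and its title concerns infiltration by astrocytes that depends on actin. Flies were reared at 25 °C, and each library was made from a pool of 1000 cells, so cells of many animals may be mixed in each. Brains were digested for 30 min (Adult) or 15 min (L3) at 29 °C, so digestion time and stage cannot be told apart. Age and sex of the animals are not stated in the labels, and nothing says that the pools came from separate animals or days, so p-values measure the spread between these pools.

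Filaments grow mainly at one end, called the barbed end, and lose subunits from aged stretches. Profilin delivers monomers to barbed ends, cofilin severs aged filaments, cyclase-associated protein frees monomers from cofilin for another round, and capping protein stops growth at barbed ends. Fly astrocytes send fine processes into the synaptic neuropil, and such processes depend on actin remodelling.

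The astrocyte markers alrm, Eaat1, Gat, repo, Gs2 and e summed to 9334 to 14210.3 CPM (a gene's count relative to its library's total) in Adult and 3474 to 5361 CPM in L3, so the sorted cells carried astrocyte RNA at both stages. Library totals were 745129 to 1287871 counts in Adult and 1923097 to 2641671 counts in L3. Depth therefore differed with stage as well. Neuron markers summed to 182 to 329 CPM in Adult and 77.6 to 145 CPM in L3 over 6 genes. The sum over 4 hemocyte markers was 847 to 1549.6 CPM in Adult and 27.6 to 43.2 CPM in L3. Of these Hml alone carried the sum, at 1278 CPM in Adult and 32.3 CPM in L3, while NimC1 was at 1.76 CPM in Adult and 1.54 CPM in L3, He at 1.37 CPM in Adult and 1.54 CPM in L3, and srp had counts in Adult library 3 only. Over 7 muscle markers the sum was 15.3 to 50.9 CPM in Adult and 4.92 to 10.9 CPM in L3. Adult and L3 means were 17.1 and 3.31 CPM for Mlc2, 9.74 and 0.780 CPM for up, and 6.86 and 0.189 CPM for Mlc1. They were 1.37 and 1.61 CPM for wupA and 1.06 and 1.09 CPM for Act88F. Mhc was at 0 in every Adult library, with 5 counts in L3 library 1, and Act57B was at 0 in all 6 libraries. Over 5 neuroblast and progenitor markers the sum was 15.9 to 51.0 CPM in Adult and 82.2 to 89.7 CPM in L3. Most of it came from insc, at 31.8 CPM in Adult and 55.0 CPM in L3 (edgeR adjusted p = 0.263). The gene dpn was at 1.55 CPM in Adult and 10.4 CPM in L3. At 0 in every Adult library were mira, wor and ase, and wor and ase were also at 0 in L3 library 2. Markers of cortex glia summed to 326 to 422 CPM in Adult and 182 to 289 CPM in L3 over 3 genes. Most of that was Cyp4g15, at 302 CPM in Adult and 202 CPM in L3. Over 4 surface glia markers the sum was 71.2 to 134 CPM in Adult and 86.3 to 110 CPM in L3. These markers went opposite ways. Indy was lower in Adult, at 12.5 CPM against 48.6 CPM in L3 (edgeR adjusted p = 0.0222). Mdr65 was at 0 in every Adult library and at 2.91 CPM in L3. Adult and L3 means were 62.4 and 30.5 CPM for Tret1-1 (edgeR adjusted p = 0.185) and 24.9 and 16.2 CPM for moody (edgeR adjusted p = 0.623). The part of these other cells in the values below was not tested, and in pooled cells, fewer cells of a type and less RNA per cell cannot be told apart.

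In Adult astrocytes the genes for profilin (chic), the beta-thymosin protein Ciboulot (cib), cofilin (tsr), cyclase-associated protein (capt) and the alpha subunit of capping protein (cpa) were lower than in L3, between 3.52-fold and 7.39-fold. No member was called higher, although the log2 fold change was above 0 for 3 of the 10 (twf, Gel and ssh). Of all tested genes, 13.1% were lower and 9.65% higher in Adult with edgeR's quasi-likelihood test at a Benjamini-Hochberg adjusted p of 0.05, against 5 and 0 of the 10 members. With DESeq2 4 members were lower and 0 higher, against 7.5% and 8.45% of all genes, and limma-voom gave 4 and 0, against 12.4% and 7.69%. The earlier quasi-likelihood method of edgeR gave 4 and 0, against 6.14% and 5.74% of all genes, and leaving out L3 library 1 gave 3 and 0, against 5.1% and 4.04%. An unadjusted p under 0.05 was given to 6 members with a negative log2 fold change and 0 with a positive one, against 19.9% and 14.7% of all tested genes. The median log2 fold change (Adult minus L3) was -1.50 over the 10 members and -0.14 over all tested genes. The Adult values of 6 members lay wholly below the L3 values, as for 22.9% of all tested genes, and those of 0 lay wholly above, as for 14.8% of all tested genes. The other 4 overlapped.

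**Figure D1:**
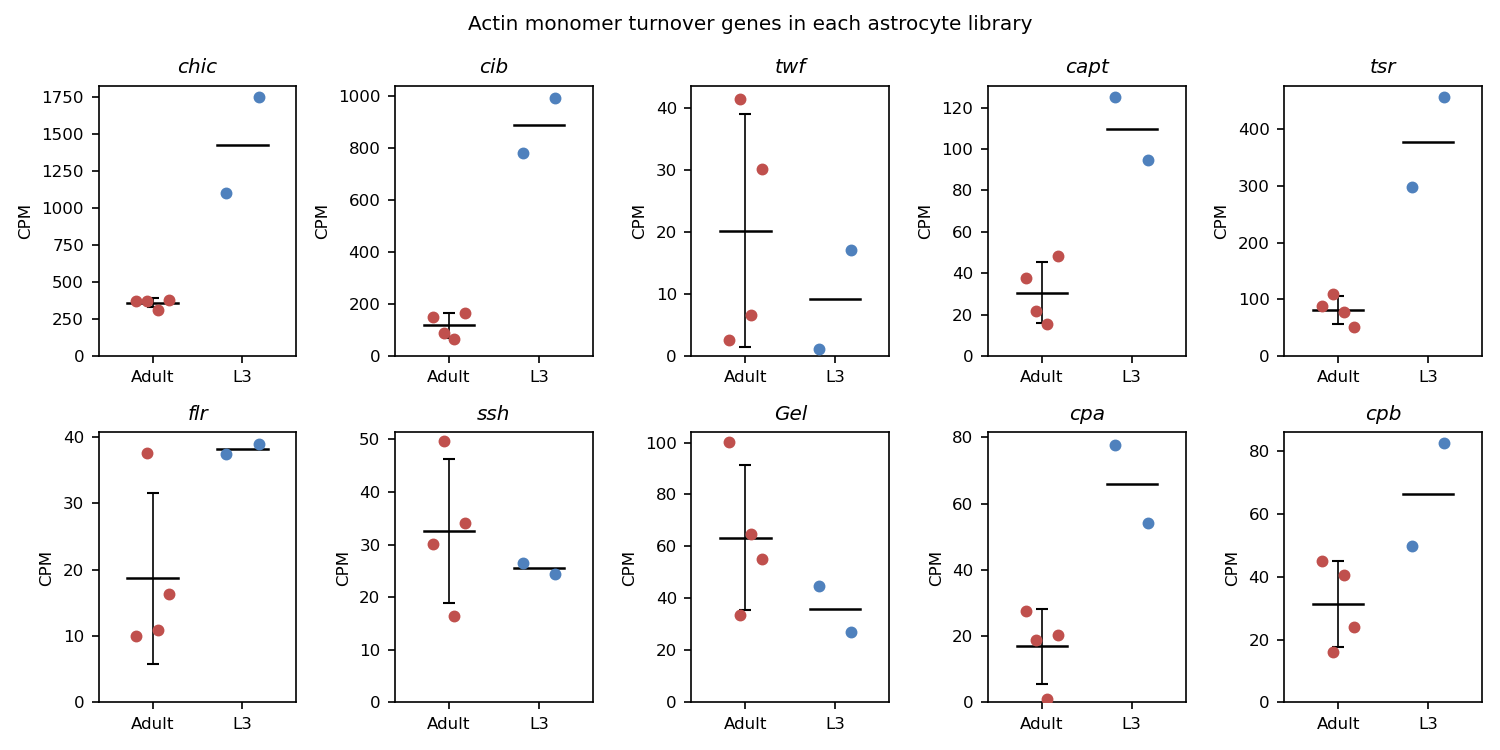
Level of each gene (CPM, linear axis from 0) in every library, Adult left of L3; points are libraries, horizontal bars the stage means, and error bars the SD of the 4 Adult libraries. For chic all 4 Adult libraries lie between 312 and 380.5 CPM, below L3 libraries at 1103 and 1750.3 CPM, while the stages overlap for twf, ssh, flr and Gel.

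Counts in this table are often the same for neighbouring genes, and 9 of the 10 members shared theirs with a neighbour. Sharing means that, for symbols within 10 rows, the differences added over the 6 libraries stayed under 5% of the counts of both genes, and 58.5% of all symbols with at least 30 counts did so. The counts of chic were the same in all 6 libraries as those of psd, CG13992 and CR43465. Those of flr equalled CG32121, and those of Gel equalled CG14642. The counts of tsr differed from IntS1 by 0.050% of their sum and from Not11 by 4.39%. The differences were 0.033% between cib and Nsun2, 0.23% between capt and Vps29, 0.13% between cpa and CG15653, 0.24% between cpb and CG17660 and 1.63% between ssh and Osbp. Each value of these 9 genes could thus belong to the member, to the neighbour or to both.

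The sharing neighbours had a common position. In Ensembl's BDGP6 annotation, used for gene order and strand only, all 12 sharing neighbours of the members lay on the member's 3′ side. For the other symbols the share was 62.8%. There, pairs were counted from both genes, while the 12 were counted from the member only, so the shares cannot be compared directly. Of these 12, 7 were on the opposite strand, so that their 3′ ends faced the member's, and 4 overlapped the member. The libraries were made from 3′ ends of polyadenylated RNA, and the labels do not state whether counting used strand. The twf gene was the exception, with no alike neighbour. Its counts differed by 0.43% from those of CG34354, which lies 1987 rows away in the table. That is under the 5% limit, so the values of twf could likewise belong to twf, to CG34354 or to both. The next most alike distant symbol, Arl4, differed by 15.0%. For the other members the most alike distant symbol differed by 3.72% (CR44896 for cib) to 8.58% (stas for Gel).

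**Figure D2:**
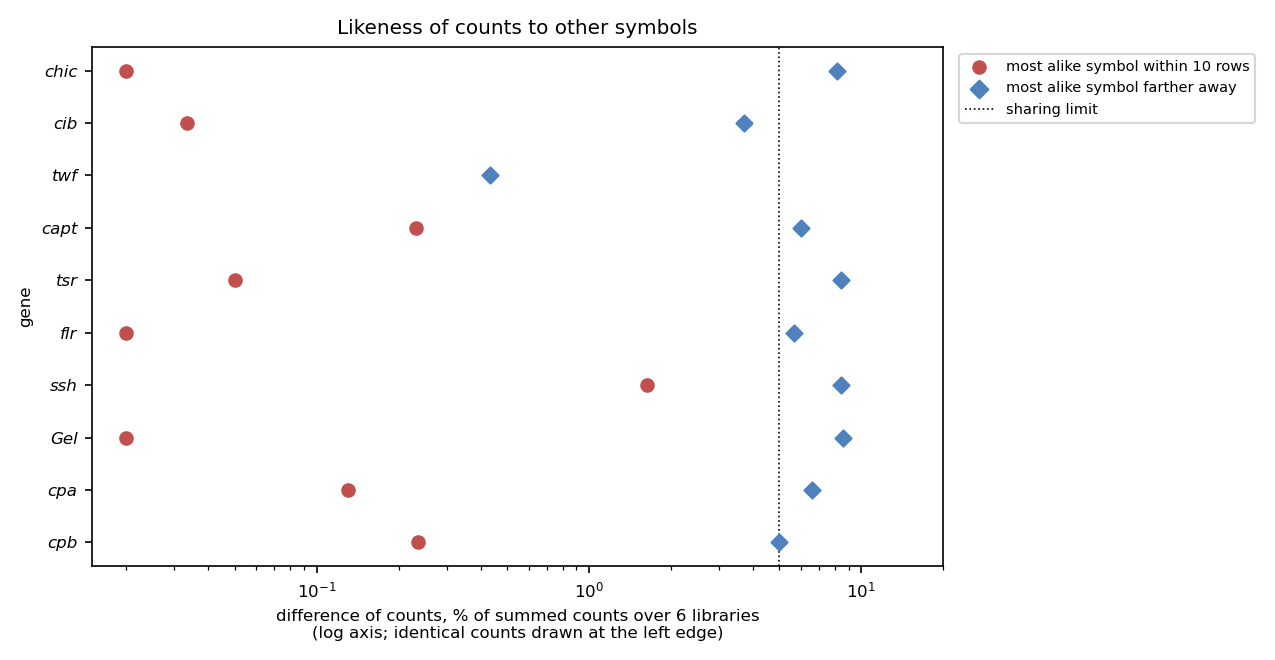
For each gene, the difference of its counts from the most alike symbol within 10 rows (circles) and from the most alike symbol farther away (diamonds), as a percentage of the summed counts over the 6 libraries on a log axis, with the sharing limit of 5% dotted. Circles lie at 1.63% or less for 9 genes, and twf has no circle because no near symbol was within 30% of its counts.

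Among the monomer-binding proteins, profilin had the highest level. The chic gene had 367, 372, 312 and 380.5 CPM in the 4 Adult libraries, against 1103 and 1750.3 CPM in the L3 libraries. The Adult libraries lay close together, with a coefficient of variation of 8.64%, and every one was below both L3 libraries. Its mean was 358 ± 30.9 CPM in Adult (SD, n = 4) and 1427 ± 458 CPM in L3 (SD, n = 2), a log2 fold change of -1.99 (SE 0.29, edgeR adjusted p = 3.28e-05).

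Ciboulot is made of beta-thymosin repeats and, in the fly, promotes filament assembly from bound monomers. The cib gene had 150.3, 89.9, 65.8 and 165 CPM in Adult libraries 1 to 4, against 782 and 991 CPM in L3. It was 7.39-fold lower in Adult, the largest difference of the 10 genes (log2 fold change -2.89, SE 0.34, edgeR adjusted p = 2.11e-06). Only 4.43% of all tested genes had a lower log2 fold change. Adult libraries 1 and 4, the deeper ones, were above Adult libraries 2 and 3. The same order held for capt and cpa, so for 3 of the 10 members, against 21.2% of all tested genes.

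Cyclase-associated protein takes monomers from cofilin and readies them for reuse. Its gene capt had 37.6, 21.5, 15.3 and 48.1 CPM in the Adult libraries, against 125 and 94.6 CPM in L3. All Adult values were below both L3 values, and the log2 fold change was -1.82 (SE 0.46, edgeR adjusted p = 0.00663). The call was lost without L3 library 1, where the value was -1.39 and the adjusted p 0.165.

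Twinfilin binds monomers and filament ends. Its gene twf had 2.50, 41.6, 6.58 and 30.3 CPM in the Adult libraries, against 1.14 and 17.2 CPM in L3. Libraries of 1 stage thus differed more than the stage means, which were 20.2 ± 18.8 CPM in Adult (SD, n = 4) and 9.15 ± 11.3 CPM in L3 (SD, n = 2). Only 3 counts lay behind the value of Adult library 1 and of L3 library 1, where the 95% counting interval (exact Poisson) ran over 0.517 to 7.32 CPM and over 0.234 to 3.32 CPM. The log2 fold change of 1.22 (SE 0.95) did not pass (edgeR adjusted p = 0.396), and it was 0.30 without L3 library 1 and 3.80 without L3 library 2.

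Cofilin, which severs filaments and speeds their loss of subunits, is encoded in the fly by tsr (twinstar). The gene had 87.7, 110.0, 76.7 and 51.2 CPM in the Adult libraries, against 298 and 456 CPM in L3. The stages did not overlap, and tsr was 4.75-fold lower in Adult (log2 fold change -2.25, SE 0.35, edgeR adjusted p = 7.26e-05).

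Flare, the fly Aip1, speeds disassembly of filaments that carry cofilin. Its gene flr had 10.02, 37.6, 10.96 and 16.3 CPM in Adult, against 37.5 and 39.0 CPM in L3. Adult library 2 reached the L3 level, and the other 3 Adult libraries lay below it. The log2 fold change was -1.18 (SE 0.61, edgeR adjusted p = 0.177). Slingshot is the phosphatase that activates cofilin. Its gene ssh had 30.1, 49.7, 16.4 and 34.2 CPM in Adult, against 26.5 and 24.4 CPM in L3. The L3 values fell inside the Adult range, with a log2 fold change of 0.28 (SE 0.57, edgeR adjusted p = 0.777).

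Gelsolin severs filaments and caps them in response to calcium. Its gene Gel had 100.2, 33.6, 64.7 and 55.1 CPM in Adult, against 44.7 and 27.0 CPM in L3. Adult library 2 lay between the L3 libraries and the other 3 lay above them. The log2 fold change of 0.78 (SE 0.50) did not pass (edgeR adjusted p = 0.286).

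Capping protein is a heterodimer of the subunits encoded by cpa and cpb. The alpha subunit gene cpa had 27.6, 18.8, 1.10 and 20.2 CPM in the Adult libraries, against 77.6 and 54.1 CPM in L3. All Adult values were below L3, and that of Adult library 3 rested on 1 count, with a 95% counting interval of 0.0277 to 6.11 CPM. The log2 fold change was -1.96 (SE 0.58, edgeR adjusted p = 0.0175), and this call was the least firm of the 5. It was lost without L3 library 1 (adjusted p = 0.262), with DESeq2 (adjusted p = 0.136), with limma-voom (adjusted p = 0.0563) and with all libraries thinned to the shallowest (adjusted p = 0.0908). Over all 19 alternatives its adjusted p ran over 0.0153 to 0.262.

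The beta subunit gene cpb had 45.1, 16.1, 40.5 and 24.1 CPM in the Adult libraries, against 49.97 and 82.7 CPM in L3. The stages did not overlap, but Adult library 1 came close to L3 library 1, and the log2 fold change of -1.03 (SE 0.49) did not pass (edgeR adjusted p = 0.137). Whether cpa and cpb differed from each other in their stage difference was tested only through their ratio, given below.

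**Figure D3:**
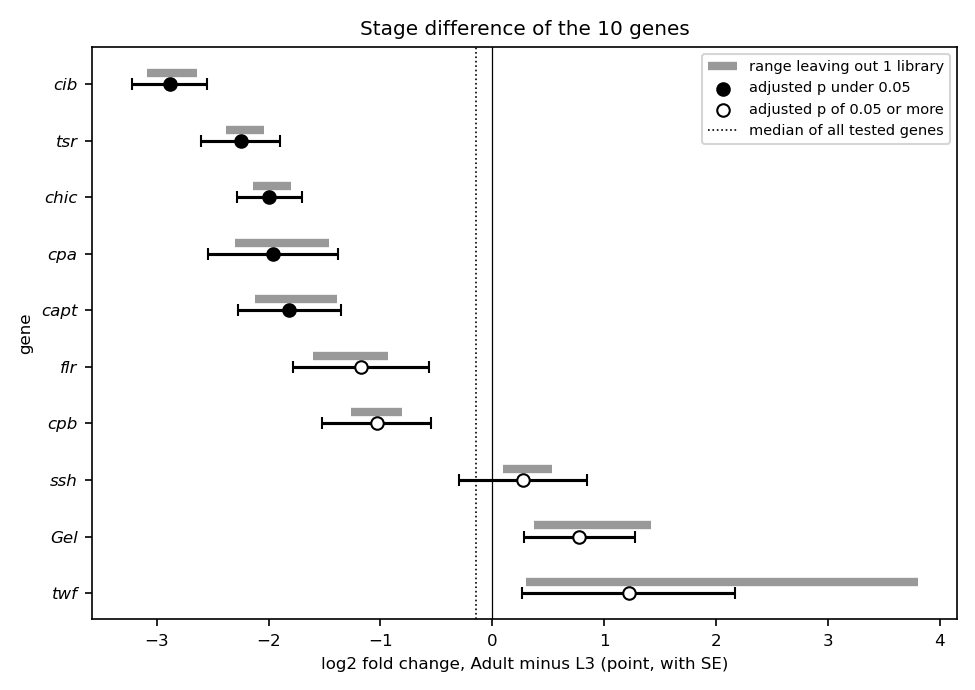
Log2 fold change (Adult minus L3) of the 10 genes with its SE, filled where the adjusted p was under 0.05, with the range over fits that each leave out 1 library as a grey bar and the median of all tested genes dotted at -0.14. The 5 filled points lie between -2.89 for cib and -1.82 for capt, and the widest grey bar is that of twf, over 0.30 to 3.80.

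The members differed in level as well as in stage difference. By CPM, which in a 3′ end library is not divided by transcript length, chic came before cib and tsr at both stages. In L3 the order went on with capt, cpb, cpa, flr, Gel, ssh and twf, where cpb and cpa overlapped, as did flr and Gel, while the other neighbours in that order were separate in the 2 libraries. In Adult it went on with Gel, ssh, cpb, capt, twf, flr and cpa, and from cib downward each gene overlapped with the next. Summed over the 10 members, the level was 610.4 to 858 CPM in Adult and 2545 to 3536 CPM in L3. The genes chic, cib and tsr made up 70.5% to 74.5% of that sum in Adult and 85.8% to 90.4% in L3.

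Ratios of counts within a library do not depend on library scaling. The ratio of cib to chic was 0.409, 0.242, 0.211 and 0.435 in the Adult libraries, against 0.709 and 0.566 in L3, so the stages did not overlap. For tsr to chic it was 0.135 to 0.296 in Adult and 0.261 to 0.270 in L3, where the L3 values fell inside the Adult range. The ratio of ssh, the activating phosphatase, to tsr was 0.343, 0.451, 0.214 and 0.667 in Adult, against 0.0889 and 0.0536 in L3. Gel to cpb, a calcium-regulated capper against a constitutive one, was 1.59 to 2.29 in Adult and 0.327 to 0.894 in L3. The stages did not overlap in either of the last 2 ratios. The capping protein subunits cpa and cpb stood at 0.0270 to 1.17 in Adult and 0.654 to 1.55 in L3, which overlapped. Of the 7 ratios compared, those of cib to chic, ssh to tsr and Gel to cpb each had an exact two-sided permutation p of 0.133 (adjusted p = 0.311), the smallest that 4 against 2 libraries can give, so none could pass 0.05. For capt to tsr (exact p = 1) and flr to tsr (exact p = 0.267) the stages overlapped, and the exact p was 0.667 for tsr to chic and 0.400 for cpa to cpb.

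**Figure D4:**
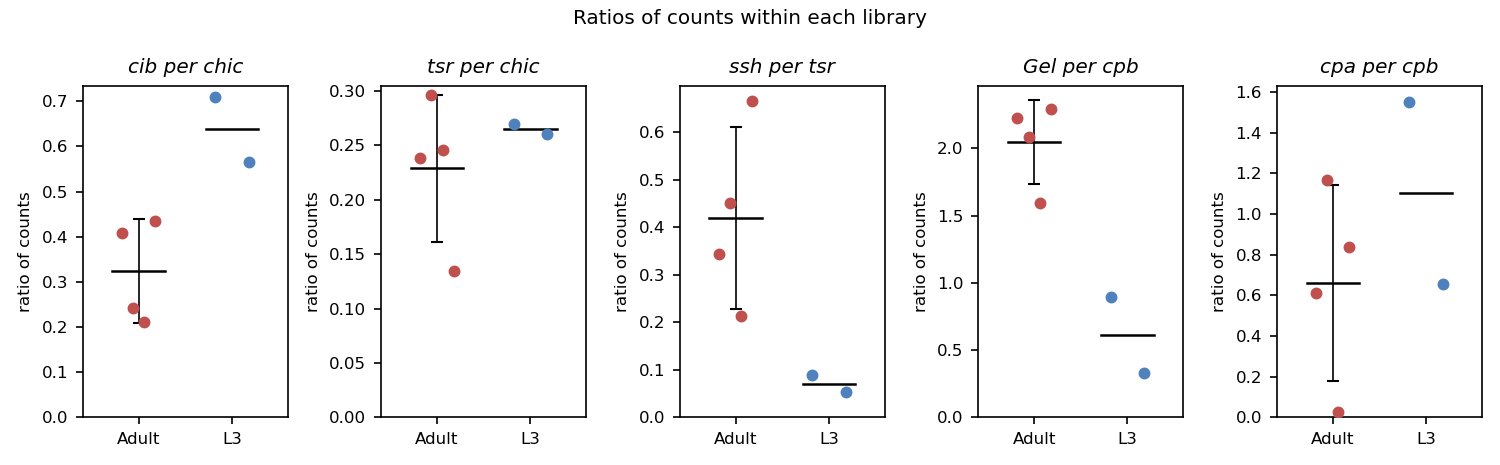
Ratio of the counts of 2 genes in each library (linear axis from 0), Adult left of L3, with the stage mean as a bar and the SD of the 4 Adult libraries. The Adult ratios of ssh to tsr lie at 0.214 to 0.667 and the L3 ratios at 0.0536 and 0.0889, while those of tsr to chic overlap.

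Other actin genes gave calls at about the rate of all genes. Of 48 partner genes found in the table, 39 could be tested, of which 3 (7.69%) were higher and 4 (10.3%) lower in Adult, against 9.65% and 13.1% of all tested genes. Their median log2 fold change was -0.27. Of the 5 tested regulators of cofilin, 0 were called by edgeR, and 0 of the 4 tested disassembly factors and 0 of the 5 tested barbed end partners. The most abundant of each were 14-3-3zeta, a phosphoserine-binding protein, at 125 CPM in Adult and 109 CPM in L3, pod1, a coronin family member, at 29.4 CPM in Adult and 59.3 CPM in L3, and mim, a membrane-bending protein, at 116 CPM in Adult and 143 CPM in L3. The cofilin kinase gene LIMK1, named after its values were seen, had 10.4 ± 11.5 CPM in Adult (SD, n = 4) and 5.11 ± 4.54 CPM in L3 (SD, n = 2; edgeR adjusted p = 0.405).

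Among 7 tested bundling and side-binding genes only the fascin gene sn was called, at 8.30 CPM in Adult and 37.7 CPM in L3 (log2 fold change -2.22, edgeR adjusted p = 0.0428). Its Adult mean rested on 0, 12, 0 and 22 counts in libraries 1 to 4. Of the 14 tested genes of the Arp2/3 complex, which nucleates branched filaments, and its activators, Arpc1 was lower, at 26.3 CPM in Adult and 91.1 CPM in L3, with the counts of tam. Arp2 was higher, at 38.9 CPM in Adult and 9.62 CPM in L3 (edgeR adjusted p = 0.0469). Its values were 85.2, 24.2, 19.7 and 26.4 CPM in Adult libraries 1 to 4. Sra-1 was higher too, at 195 CPM in Adult and 69.9 CPM in L3 (edgeR adjusted p = 0.0180), with the counts of CG6218.

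Of 4 tested actin genes, Act5C and Act42A fell in Adult and Act79B rose. Their log2 fold changes were -1.86, -4.40 and 6.97 (edgeR adjusted p = 0.000955, 6.73e-06 and 4.77e-07). That of Act5C, the main cytoplasmic actin beside Act42A, was close to those of chic at -1.99 and tsr at -2.25. Adult and L3 means were 97.7 and 358 CPM for Act5C, 12.9 and 220 CPM for Act42A, and 323 and 2.08 CPM for Act79B. Act79B was not among the muscle markers summed above, and which cells carried its RNA was not tested.

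**Figure D5:**
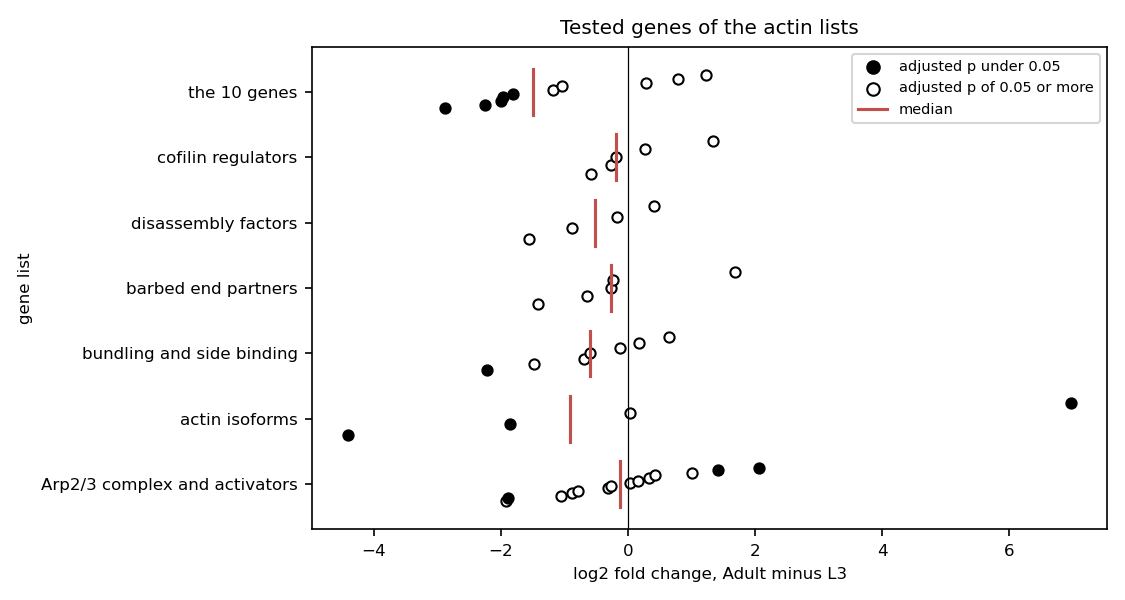
Log2 fold change (Adult minus L3) of every tested gene of the 10 and of 6 lists of actin partners, filled where the adjusted p was under 0.05, with the list's median as a red line. The median lies at -1.50 for the 10 genes and between -0.91 (actin isoforms) and -0.12 (Arp2/3 complex and activators) for the lists.

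The genes most like chic over the 6 libraries were found by the root mean square difference of log2 CPM after centring each gene on its own mean. Among 2017 named genes, kay, the fly Fos, with nearly the counts of the distant symbol CG3817, differed by 0.11, and Men, a malic enzyme, and mus308, a DNA polymerase, differed by 0.16 and had the same counts as each other. For comparison, tsr differed from chic by 0.36 and cib by 0.61. For cib the most alike were the small nucleolar RNA symbols snoRNA:Me28S-C788b, snoRNA:Me28S-C788a and snoRNA:Me28S-G3113b, which had the same counts and differed by 0.23. They were at only 5.31 CPM in Adult and 50.3 CPM in L3. Their sharing group held 5 symbols, so the counts could belong to any of these. These distances are descriptions of 6 libraries in 2 stages, and any gene that was lower in Adult by a like amount is near.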

How the data were processed

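Whole-number counts per gene symbol, without normalization, were deposited by the authors for 6 libraries, and 0 other sample columns were present. Per the labels' protocols, RNA from sorted pools was made into 3′ end libraries by a MARS-seq derivative. The tools bcl2fastq, HISAT 0.1.5 and HOMER are named in the submitters' processing notes. What each did, the genome build and any collapsing of molecular identifiers are not stated there. Intervals therefore cover counting error only, and no coordinates are given.

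CPM was computed from each library's total count, which includes the repeated counts of neighbours. All genes were tested with edgeR 4.0.16 in R 4.3.3 (quasi-likelihood, TMM, filterByExpr by stage, Benjamini-Hochberg over all tested genes, 0.05), and the script was tested on simulated data. Standard errors are the absolute log2 fold change over the square root of F. Alternatives included DESeq2 1.42.0 and limma-voom (limma 3.58.1). Ratios were tested by exact permutation (scipy 1.17.1). Members, partner lists and tests were chosen with earlier results of these data known, and 1 partner list is not reported here. Text names all members, partners past 0.05 or most abundant in a list, and 3 genes most like each of the 2 most abundant members (at least 50 CPM, over 10 rows away, prior count 3).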

Additional observations from a re-analysis of the deposited data

How the results depend on the processing

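The falls of chic and cib kept their direction and call under all 19 alternatives, with log2 fold changes of -2.14 to -1.80 and -3.09 to -2.64, and so did the uncalled state of twf, ssh, flr, Gel and cpb. No member changed sign. Leaving out 1 library at a time gave 3 to 5 members lower (3 without L3 library 1), -2.12 to -1.39 for capt, -2.30 to -1.46 for cpa, 403 to 1020.0 genes higher and 509 to 1189 lower, and 1 to 4 partner genes higher and 2 to 5 lower. A fit with 1 L3 library takes its spread from the Adult libraries.

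The value of cpa no longer passed with DESeq2 (-2.01), limma-voom (-2.39), edgeR's earlier quasi-likelihood method (-2.01), thinning (-1.69) and, an alternative added after the data were seen, that earlier method with 1 row per sharing group (-2.03). Against 876 genes higher and 1188 lower of 9082 tested, the earlier method gave 521 and 558, and an adjusted p of 0.01 gave 512 and 648. DESeq2 gave 681 lower. With 1 row per sharing group only 6032 genes were tested, of which 542 were higher and 716 lower. Both changes together gave 325 and 294 of 6032. Counts out of 6032 and out of 9082 cannot be compared directly. Against 3 partner genes higher and 4 lower, the earlier method, with or without 1 row per group, and the threshold of 0.01 each gave 1 and 3, and thinning gave 1 and 4. Causes were not tested.

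Replicate numbers 1 and 2 are shared by both stages, but no label says that they mark a shared day or batch. Same-numbered libraries did not deviate together (r = 0.012 across genes). With 2 libraries per stage, such a correlation cannot tell whether they share more than a number. In these 4 libraries the replicate block left 2 of the 10 members lower, and 306 genes higher and 186 lower of 8853 tested. Of 39 tested partner genes, 1 was higher and 0 lower. The same 4 libraries without the block gave 4 members lower, 779 genes higher and 885 lower, and 2 partner genes higher and 4 lower. With the block tsr (-1.92), capt (-1.94) and cpa (-1.57) no longer passed, and cpa did not pass without the block either (-1.51). The number of libraries and the depth limit capt, twf, ssh, flr, Gel, cpa and cpb, each with counts under 40 in at least 1 library.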
